A study of Mus musculus with 8 samples.

Results

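The genes described here are the 4 that encode the NOTCH receptors of the mouse, *Notch1*, *Notch2*, *Notch3* and *Notch4*. They were chosen by name, as 4 of the 48526 genes for which reads were counted, and all 4 are among the 9744 genes with enough reads to be tested. The libraries come from the heart field, the tissue of cardiac precursors behind the heart tube, which was dissected from wild-type male C57bl6/J embryos at stage E8.5f after the heart and the back had been taken away, and was cut along the midline. Each of the 4 embryos, L29-3, L43-5, L46-8 and L49-3, gave a left and a right library, so that the 8 libraries form 4 pairs that share genotype, strain, sex and stage. No embryo received a treatment, and the piece of tissue is a mixture that holds neighbouring cell types next to cardiac precursors. The study asked which genes differ between the sides, and it singled out *Notch3* from these same libraries, so that a difference in *Notch3* seen here is not independent evidence. The study also measured *Notch3* by in situ hybridization in other embryos, where its left enrichment was largest at a stage before E8.5f. Those images are not part of the data used here. The libraries are a bulk measurement, in which fewer cells with a transcript and less of the transcript per cell cannot be told apart.

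NOTCH receptors are single-pass membrane proteins that are activated by ligands of the Delta and Jagged families on a neighbouring cell. Binding exposes the receptor to ADAM proteases and then to gamma-secretase, which releases the intracellular domain to the nucleus, where it joins RBPJ and Mastermind-like proteins to activate targets such as the *Hes* and *Hey* genes. *Notch1* acts in arterial endothelium and endocardium, *Notch2* is broadly expressed, *Notch3* is best known in pericytes and arterial smooth muscle, and *Notch4* is known mainly from endothelial cells.

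The 4 genes are long and differ in the length over which reads were counted, so that raw counts do not rank them. In GRCm38 and the GENCODE vM21 annotation, *Notch1* (ENSMUSG00000026923) lies on chromosome 2 from 26457903 to 26516663 on the minus strand, and the union of its exons covers 14232 bases. *Notch2* (ENSMUSG00000027878) lies on chromosome 3 from 98013527 to 98150361 on the plus strand, with 10782 bases of exons. *Notch3* (ENSMUSG00000038146) lies on chromosome 17 from 32120820 to 32166852 on the minus strand, with 8089 bases. *Notch4* (ENSMUSG00000015468) is on the same chromosome, from 34564268 to 34588503 on the plus strand, with 8061 bases. The union is 1.5 times as long as the longest coding transcript for *Notch1*, 1.223 times for *Notch4*, 1.027 times for *Notch2* and 1.009 times for *Notch3*, so that the choice of length matters most for *Notch1*. Exons of the receptors share bases with 4 unstudied transcripts that together drew few reads. These are *0610009E02Rik* (6 reads over all libraries) and *Gm13568* (0 reads) opposite *Notch1*, *Gm42820* (5 reads) on the strand of *Notch2*, and *Gm17276* (4 reads) opposite *Notch3*. They share 1068, 414, 541 and 488 bases with the receptors in this order. How reads in shared bases were assigned is not given, so it is not known whether the receptors lost reads there. A stretch of 100 bases of *Notch3* also matches *Gm9978* at 96.0% identity, and *Gm9978* had 0 reads.

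Receptors of a family can share reads where their sequences are alike. The longest coding transcripts were therefore compared without gaps in every window of 130 bases, the length of a read. The most alike windows of any pair of receptors were in *Notch1* and *Notch3*, and they are printed because they are where reads of *Notch3* come closest to those of a paralogue. They lie in the coding sequence, at positions 6385 to 6514 of the longest coding transcript of *Notch1* (exons 33 and 34 of 34, GRCm38 chr2:26462148-26462177 and chr2:26460877-26460976) and 5946 to 6075 of that of *Notch3* (exons 32 and 33 of 33, chr17:32124282-32124311 and chr17:32122761-32122860), all on the minus strand. Capitals mark the bases that differ.
Notch1: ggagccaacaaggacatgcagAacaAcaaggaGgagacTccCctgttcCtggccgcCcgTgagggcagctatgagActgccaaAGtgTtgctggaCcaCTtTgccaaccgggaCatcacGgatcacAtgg
Notch3: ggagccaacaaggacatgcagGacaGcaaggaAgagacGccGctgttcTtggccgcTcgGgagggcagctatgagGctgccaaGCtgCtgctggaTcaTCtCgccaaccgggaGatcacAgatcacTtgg
In this window 111 of 130 bases match and 19 differ, and the longest run of identical bases shared by any pair of receptors is 25. No window of read length in these transcripts thus comes closer than 19 differences to a paralogue.

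The 250 bases before the start of *Notch3* and *Notch4*, the highest and the lowest receptor per base, are printed next, from RefSeq on GRCm38.p6. Capitals mark the GC box, the letters GGGCGG on either strand.
Notch3 (chr17:32166891-32167140, minus strand): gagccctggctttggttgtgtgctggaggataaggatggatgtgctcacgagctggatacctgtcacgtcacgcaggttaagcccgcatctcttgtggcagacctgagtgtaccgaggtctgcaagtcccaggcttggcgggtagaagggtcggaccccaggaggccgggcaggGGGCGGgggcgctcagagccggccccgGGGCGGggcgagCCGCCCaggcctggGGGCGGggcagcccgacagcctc
Notch4 (chr17:34564045-34564294, plus strand): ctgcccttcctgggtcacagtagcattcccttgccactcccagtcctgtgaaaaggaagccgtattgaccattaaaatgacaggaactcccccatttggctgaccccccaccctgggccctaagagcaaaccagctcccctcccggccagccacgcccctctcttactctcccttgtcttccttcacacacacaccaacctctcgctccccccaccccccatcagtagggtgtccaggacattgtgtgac
*Notch3* holds 4 GC boxes in this window, *Notch1* and *Notch2* hold 5 each, and *Notch4* holds 0, where 32.7% of 32851 promoters of the same length hold at least 1. The GC content is 66.0% for *Notch1*, 72.0% for *Notch2*, 68.8% for *Notch3* and 58.4% for *Notch4*, with a median of 52.4% over all promoters. The core of the RBPJ motif, TGGGAA, was found in 0 of the 4 windows and in 21.6% of all promoters, and the FOXH1 motif AATCCACA in 0 of the 4 and in 0.718%. The TATA box TATAAA was also found in 0 of the 4, against 12.4% of all promoters. These are matches of letters on both strands, with no bearing on whether a factor binds.

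Per base of exon, *Notch3* was the highest of the 4 receptors, followed by *Notch2*, *Notch1* and *Notch4*, and this order held in 8 of 8 libraries. Levels are given as RPKM, the reads per kilobase of the union of exons scaled to a common library size, with library sizes from the TMM method. The total count per library ranged from 1147446 to 3520753. L49-3 left stood apart from the other libraries in cardiomyocyte markers, with a summed normalized count of 641 against 2067 or more elsewhere. Both libraries of L49-3 were the lowest in markers of the juxta-cardiac field, with sums of 135 on the left and 101 on the right, against 247 or more elsewhere. On this scale *Notch3* had a mean level of 20.2 ± 3.52 (SD, n = 8 libraries of 4 embryos), *Notch2* 13.5 ± 1.2, *Notch1* 4.36 ± 0.808 and *Notch4* 1.37 ± 0.610. Among 9737 tested genes with a known length, with a median of 11.1, *Notch3* stood at the percentile 70.1, *Notch2* at 57.0, *Notch1* at 18.9 and *Notch4* at 1.32. *Notch3* and *Notch2* were thus above the middle of the tested genes, and *Notch4* was among the lowest.

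The level of *Notch3* on the left was 21.7, 18.3, 21.9 and 27.8 in L29-3, L43-5, L46-8 and L49-3, from 269 to 421 reads. On the right it was 18.6, 18.3, 17.5 and 17.5 in the same order, from 157 to 514 reads. The 4 right libraries lay close together, with a coefficient of variation of 3.05% against 17.6% for the left libraries (9.68% without L49-3), and the sides overlapped, since L43-5 left was below L29-3 right. The spread on the right was below the counting error of single libraries of *Notch3*, 4.41% to 7.98%. Its smallness is therefore not read as a trait of the right side. *Notch2* on the left had levels of 13.0, 14.7, 14.6 and 11.5 in L29-3, L43-5, L46-8 and L49-3, and 15.1, 13.5, 12.8 and 12.9 on the right, from 148 to 506 reads. The ranges of both sides overlapped for *Notch2*, and its lowest library, L49-3 left, was the one in which *Notch3* was highest.

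*Notch1* on the left had levels of 5.59, 4.30, 3.58 and 5.40, and 3.29, 4.31, 4.45 and 3.93 on the right, from 62 to 213 reads, with overlapping sides. *Notch4* had the fewest reads, from 2 to 46 per library, and its levels on the left were 1.96, 1.53, 0.653 and 0.207, against 1.49, 1.64, 1.79 and 1.68 on the right. The low values of *Notch4* are those of L46-8 left and L49-3 left, with 12 and 2 reads, and the other 6 libraries lay between 1.49 and 1.96. With 2 reads, the level of *Notch4* in L49-3 left is known only roughly, with an exact 95% interval of 0.0474% to 1.41% of the 511 receptor reads of that library. The counting error was 4.41% to 7.98% of the level for *Notch3*, and 14.7% to 70.7% for *Notch4*. These intervals and errors cover counting only. The sides overlapped for all 4 receptors. Of all tested genes, 1.51% had every left library above every right library and 1.01% had every left library below.

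**Figure D1:**
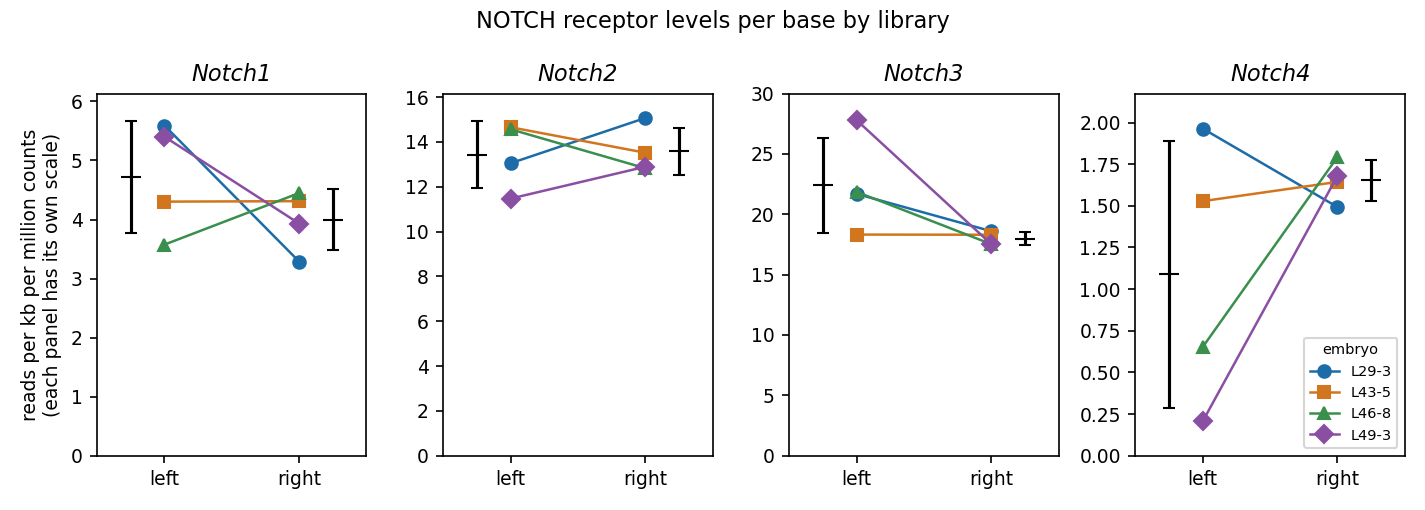
Level of each receptor in the 8 libraries, in RPKM, with a panel and a vertical scale for each receptor. Lines join the left and right library of an embryo, and bars show the mean ± SD of the 4 libraries of a side. The 4 right libraries of *Notch3* lie between 17.5 and 18.6 and its left libraries between 18.3 and 27.8.

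How far apart the receptors were was measured within each library, where the scaling of the libraries cancels, and then averaged over both sides of an embryo. *Notch3* was above *Notch2* by 0.57 ± 0.204 on the log2 scale (SD, n = 4 embryos), or 1.48-fold, with a 95% interval of 0.24 to 0.89, and by 0.47 without L49-3. The difference in single libraries went from 1.23-fold to 2.42-fold. *Notch2* was above *Notch1* by 1.64 ± 0.170, or 3.13-fold, and *Notch1* was above *Notch4* by 1.84 ± 0.674, or 3.58-fold. The separation of *Notch3* from *Notch1* was the most even of the 6 between embryos, at 2.21 ± 0.0893, or 4.64-fold. All 6 differences between receptors had the same direction in 4 of 4 embryos, with a two-sided p of 0.13 from the exact sign-flip permutation test for each, also after Benjamini-Hochberg adjustment over the 6, which is the smallest p that 4 embryos allow. The 95% intervals of the 6 differences, which assume a normal spread between embryos, all lay above 0.

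The step between *Notch3* and *Notch2* depended on the length. It was 0.54 with the longest coding transcript in place of the union, in which case the full order again held in 8 of 8 libraries, and 0.24 with the coding sequence alone, when *Notch3* was above *Notch2* in 6 of 8. Without scaling by length it was 0.15. With the mean length of the coding transcripts, which averages in short annotated coding transcripts of *Notch1* and *Notch3*, it was 1.42, and the step between *Notch2* and *Notch1* shrank to 0.17 with 6 of 8 libraries in order. Without scaling, the step between *Notch3* and *Notch2* was thus smaller than the SD between embryos of 0.204. *Notch4* had the lowest mean on all of these scales.

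Next to other genes of the pathway, *Notch3* was not the highest per base. Of 36 tested genes among 52 listed for the NOTCH pathway besides the receptors, 9 had a higher mean level than *Notch3*, 4 of these in 8 of 8 libraries, and 24 were below it in 8 of 8. The 4 genes were *Hdac1*, a histone deacetylase (73.6 ± 7.11, SD, n = 8 libraries), *Kat2a*, a histone acetyltransferase (41.6 ± 3.16), *Hes1*, a transcriptional target of NOTCH (30.2 ± 5.48), and *Adam10*, which makes the first cut of an activated receptor (28.4 ± 2.08). *Hes1* and *Adam10* had fewer reads than *Notch3* in all 8 libraries, so their order relative to *Notch3* was reversed by the scaling. The level of *Jag1*, a ligand, was 22.7 ± 4.31, above *Notch3* in 6 of 8 libraries, and that of *Ncstn*, a subunit of gamma-secretase, was 22.6 ± 2.96, above it in 7 of 8, although *Notch3* had more reads than either in every library. *Mib1*, the ubiquitin ligase that activates ligands, had 20.4 ± 1.59, above *Notch3* in 7 of 8. *Rfng*, a fringe that modifies the receptors, had 9.71 ± 1.94, and *Dtx4*, a Deltex modulator, had 6.73 ± 3.51, both below *Notch3* in 8 of 8. With the longest coding transcript as the length, 16 of the 36 genes had a higher mean than *Notch3*, 8 of them in 8 of 8 libraries.

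*Notch3* was the only receptor with a higher level on the left in 4 of 4 embryos, with ratios from close to equal to 1.58-fold. Its log2 ratios of left to right were 0.22, 0.0014, 0.32 and 0.66 in L29-3, L43-5, L46-8 and L49-3, with a mean of 0.30 ± 0.276 (SD, n = 4 embryos, or 0.18 without L49-3) and a two-sided p of 0.13 from the exact sign-flip permutation test, the smallest possible. Of all tested genes, 6.26% had a ratio above 0 in all 4 embryos. The ratio was within counting error of 0 in L29-3 and L43-5, whose 95% counting intervals hold 0, and above it in L46-8 (0.07 to 0.56) and L49-3 (0.38 to 0.95).

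*Notch1* had log2 ratios of 0.76, -0.00197, -0.32 and 0.45 in L29-3, L43-5, L46-8 and L49-3, with a mean of 0.22 ± 0.477 (SD, n = 4), or 0.15 without L49-3. Its largest difference, in L29-3, was 1.69-fold and was outside the counting interval (0.36 to 1.16), and L46-8 was on the opposite side of 0. *Notch2* had ratios of -0.21, 0.12, 0.18 and -0.17, with a mean of -0.02 ± 0.197, or 0.03 without L49-3. The values of *Notch2* were 2 above and 2 below 0, and all 4 were within counting error of 0.

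The ratios of *Notch4* were 0.38, -0.10, -1.43 and -2.74, with a mean of -0.97 ± 1.41 (SD, n = 4), or -0.39 without L49-3. The value in L49-3 rests on 2 left and 15 right reads, and its counting interval reached from -4.67 to -0.82, while that of L46-8, with 12 and 21 reads, reached from -2.44 to -0.43. The spread between embryos exceeded the counting error for each receptor. On the log2 scale it was an SD of 0.477 against an error of 0.199 for *Notch1*, 0.197 against 0.130 for *Notch2*, 0.276 against 0.122 for *Notch3* and 1.41 against 0.613 for *Notch4*.

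**Figure D2:**
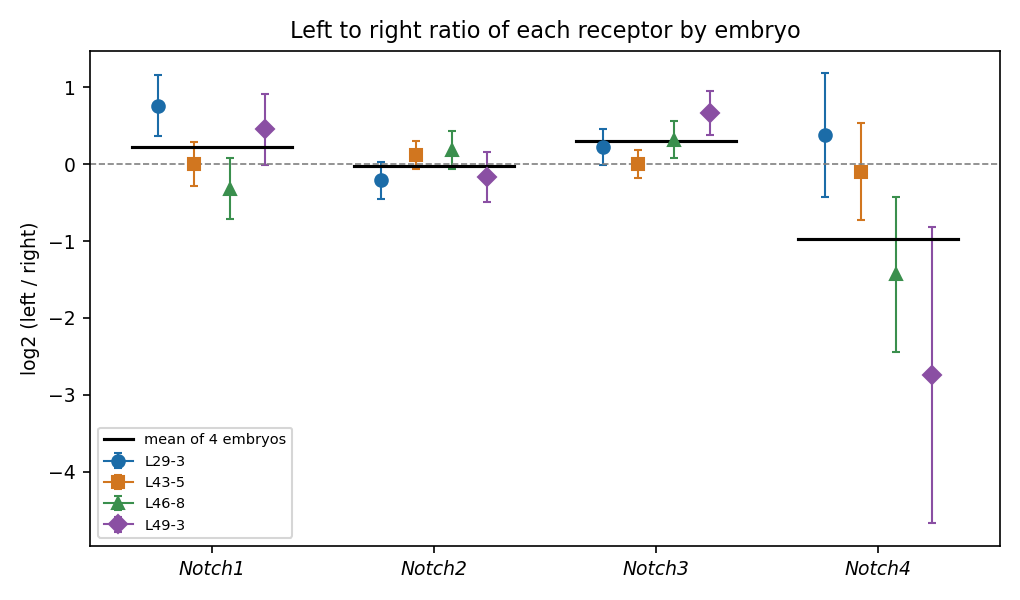
Log2 ratio of left to right of each receptor in each embryo, with points for the embryos, bars for 95% counting intervals and a black line for the mean of 4 embryos. *Notch3* lies at or above 0 in 4 of 4 embryos, *Notch2* within 0.21 of 0, and *Notch4* goes from 0.38 down to -2.74.

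In the fit over all 9744 genes, 1 of the 4 receptors, *Notch3*, passed the threshold of the study, which asks for a 1.2-fold difference or more and an unadjusted p of 0.05 or less. Among all tested genes, 1.63% passed it with a higher level on the left and 1.42% with a lower level. The log2 fold change of *Notch3* was 0.28 (standard error 0.0995, unadjusted p = 0.0157 from edgeR's quasi-likelihood test), and 4.80% of the tested genes had a log2 fold change at least as high. *Notch1* had 0.20 (standard error 0.160), *Notch2* -0.01 (standard error 0.0894) and *Notch4* -0.56 (standard error 0.382), with unadjusted p-values of 0.225, 0.945 and 0.171. After Benjamini-Hochberg adjustment 0 of the 4 receptors had an adjusted p under 0.05, against 0.0103% of all tested genes, and the adjusted p of *Notch3* was 0.987. Without L49-3 the log2 fold change of *Notch3* was 0.17 (unadjusted p = 0.102 from edgeR), under the threshold of the study. With limma-voom it was 0.25 (unadjusted p = 0.0240), which is also under the fold of 1.2.

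Whether *Notch3* was more left-sided than its paralogues was asked by subtracting the log2 ratio of each paralogue from that of *Notch3* in the same embryo. None of the 3 differences between receptors was larger than the spread between embryos allows to call. *Notch3* minus *Notch2* was 0.43, -0.12, 0.14 and 0.83 in L29-3, L43-5, L46-8 and L49-3, a mean of 0.32 ± 0.407 (SD, n = 4) with a 95% interval of -0.33 to 0.97 and p = 0.25 from the two-sided exact sign-flip permutation test. The counting interval of the difference excluded 0 in L29-3 and L49-3, and 3 of 4 embryos were above 0.

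*Notch3* minus *Notch1* was -0.54, 0.00337, 0.63 and 0.21 in the same order, a mean of 0.08 ± 0.487 (SD, n = 4) with a 95% interval of -0.70 to 0.85 and p = 0.625 by the exact permutation test. The counting intervals of L29-3 and L46-8 excluded 0 in opposite directions, with *Notch1* the more left-sided in L29-3 and *Notch3* in L46-8. *Notch3* minus *Notch4* was -0.16, 0.10, 1.75 and 3.41, a mean of 1.28 ± 1.65 (SD, n = 4) with a 95% interval of -1.35 to 3.91 and p = 0.375 by the exact permutation test. The counting intervals of L46-8 and L49-3 excluded 0, and both values rest on the libraries with 12 and 2 reads of *Notch4*.

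Adjusted over the 3 paralogues, the p-values of these exact permutation tests were 0.5625 for *Notch2* and *Notch4* and 0.625 for *Notch1*. The intervals leave room for *Notch3* to be more left-sided than *Notch2* by 0.97 on the log2 scale or less so by 0.33, and thus do not show that the receptors behave alike. In the fit over all genes, the log2 fold change of *Notch3* exceeded that of *Notch2* by 0.29 (combined standard error 0.134, which treats the genes as independent), that of *Notch1* by 0.08 (0.188) and that of *Notch4* by 0.84 (0.395). Without L49-3, *Notch3* minus *Notch2* was 0.15 and *Notch3* minus *Notch4* was 0.57, and without L46-8, *Notch3* minus *Notch1* was -0.11. The order of the receptors by their ratio was also different in each of the 4 embryos. *Notch1* was the most left-sided receptor in L29-3, *Notch2* in L43-5 and *Notch3* in L46-8 and L49-3, while *Notch4* was last in L43-5, L46-8 and L49-3 and *Notch2* in L29-3.

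**Figure D3:**
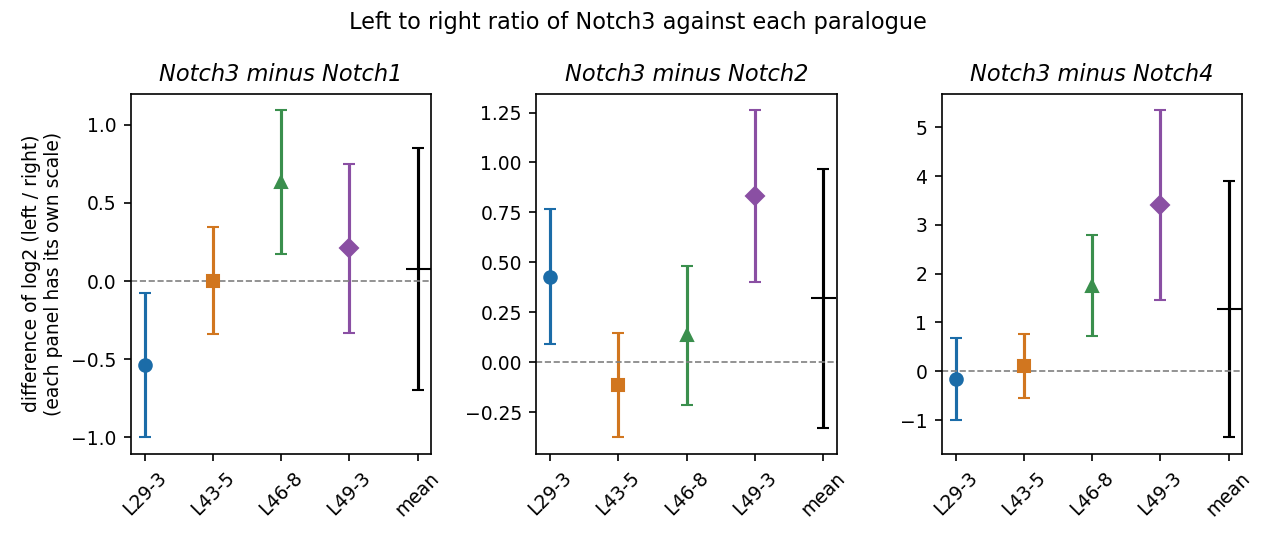
Log2 ratio of left to right of *Notch3* minus that of *Notch1*, *Notch2* or *Notch4*, with a panel and a vertical scale for each paralogue. Colored points are embryos with 95% counting intervals, and the black bar is the mean with its 95% interval over 4 embryos. The 3 intervals of the mean, from -0.70 to 0.85, -0.33 to 0.97 and -1.35 to 3.91, all hold 0.

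The make-up of the receptor pool gives the same counts in a form that needs no scaling between libraries. *Notch3* made up 53.5 ± 6.21% (SD, n = 4 embryos) of the summed reads per kilobase of the 4 receptors on the left and 48.3 ± 0.318% on the right. *Notch2* made up 32.5 ± 5.47% and 36.5 ± 1.86%, *Notch1* 11.3 ± 1.88% and 10.8 ± 1.56%, and *Notch4* 2.66 ± 1.96% and 4.45 ± 0.439%. The share of *Notch3* in the left libraries went from 47.2% in L43-5 to 61.9% in L49-3. The right libraries were closer in this share than the counting error of single libraries, so their closeness is not read as a trait of that side.

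Left minus right, the share of *Notch3* differed by 2.91, -1.25, 5.88 and 13.3 percentage points in L29-3, L43-5, L46-8 and L49-3, a mean of 5.21 ± 6.13 (SD, n = 4, p = 0.25 by the two-sided exact sign-flip permutation test, 0.667 adjusted over the 4 receptors), and of 2.51 without L49-3. That of *Notch2* was -8.34, 1.98, 0.776 and -10.2 points, so that *Notch2* held a smaller share on the left in the embryos L29-3 and L49-3 only. The adjusted p of the exact permutation test was 0.667 for *Notch2* and *Notch4* as well, and 0.75 for *Notch1*. As a share of receptor reads not scaled by length, *Notch3* had 269 of 511 reads in L49-3 left, or 52.6% (95% exact Clopper-Pearson interval 48.2% to 57.0%), and 157 of 388 in L49-3 right, or 40.5% (35.5% to 45.5%), which do not overlap. In the other 3 embryos the intervals overlapped. They were 39.4% to 45.9% on the left and 36.4% to 44.7% on the right in L29-3, 36.1% to 42.0% and 37.5% to 42.9% in L43-5, and 42.0% to 48.7% and 35.4% to 44.0% in L46-8.

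The 4 receptors together had a summed level of 42.3, 38.8, 40.6 and 44.9 on the left and 38.4, 37.8, 36.6 and 36.02 on the right in L29-3, L43-5, L46-8 and L49-3. All 4 left sums were above all 4 right sums, which was the case for 1.51% of single tested genes. That share is for single genes on DESeq2-normalized counts, so it does not say how rare this is for a sum of 4 chosen genes. The log2 ratios were 0.14, 0.04, 0.15 and 0.32, with a mean of 0.16 ± 0.115 (SD, n = 4), or 0.11 without L49-3. *Notch3* makes up the largest part of this sum, which was computed over members already examined one by one and is given without a test.

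**Figure D4:**
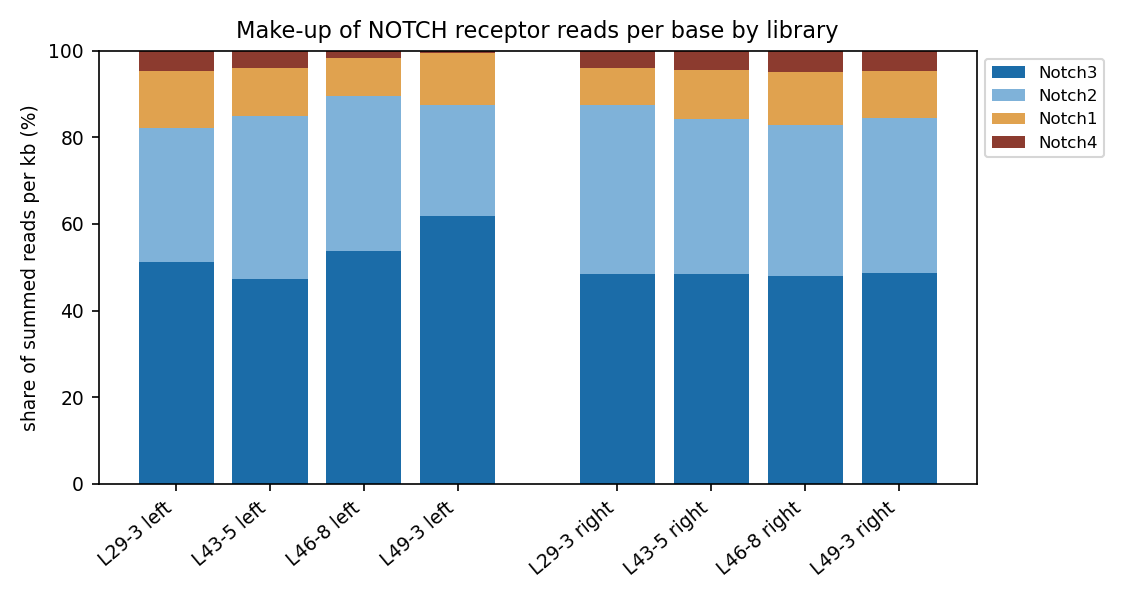
Share of each receptor in the summed reads per kilobase of the 4 receptors, in percent, as stacked bars for the 4 left and the 4 right libraries. *Notch3* makes up 47.2% to 61.9%, with its highest share in L49-3 left, where *Notch4* makes up 0.462%.

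The other genes of the pathway were compared between the sides by the same fit. Of the 36 tested genes, 1 passed the threshold of the study with a higher level on the left and 2 with a lower level, together 8.33%, where 1.63% and 1.42% of all tested genes did. In edgeR 0 of the 36 had an adjusted p under 0.05 and 4 had an unadjusted p under 0.05, where 4.36% of all tested genes had. The median log2 fold change of the 36 genes was 0.01, against -0.00423 over all tested genes. By role, the gene with the higher level was 1 of 3 tested ligands, *Jag1*, and those with the lower level were 1 of 7 modulators, *Dtx4*, and 1 of 3 targets, *Hes1*. The study examined these 3 genes and *Ncstn* on these samples, and their direction is therefore not independent evidence. It detected *Dtx4* in ectodermal cells alone in a published single-cell dataset, and kept *Jag1*, *Hes1* and *Ncstn* as candidates in the heart field. Of the genes that cut the receptor, 0 of 8 passed, but *Ncstn* missed the fold of 1.2 by little (log2 fold change 0.26, 1.199-fold, unadjusted p = 0.0261 from edgeR) and passed in 7 of 11 alternatives. Of 10 nuclear partners, 3 genes of glycosylation and trafficking such as *Mib1* (log2 fold change 0.05) and 2 fringes such as *Rfng* (0.21), 0 passed.

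Ligands and targets that mark active signaling elsewhere were mostly too low to be tested. The mean normalized count was 8.88 for *Dll1*, 3.93 for *Dll3* and 17.8 for *Dll4*, all Delta ligands, and 2.48 for *Hes5* and 3.17 for *Heyl*, both targets. Of the 52 genes, 16 did not reach 20 normalized counts in 4 libraries. In single embryos, the log2 ratio of *Jag1* was 0.31, -0.14, 0.51 and 0.77 in L29-3, L43-5, L46-8 and L49-3, and that of *Hes1* was -0.02, -0.37, -0.40 and -0.31. *Jag1* was thus highest on the left in L49-3 and lower on the left in L43-5, and *Hes1* was below 0 in 4 of 4 embryos, where 6.11% of all tested genes were. The other tested targets, *Hey1* and *Hey2*, had log2 fold changes of 0.25 and 0.00779 and did not pass the threshold of the study.

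Marker genes of the cell types that the dissected piece can hold were set beside these ratios. All 8 markers of the second heart field were tested, with a summed normalized count of 578 to 940. The log2 ratios of this sum were -0.00367, -0.47, 0.11 and 0.11 in L29-3, L43-5, L46-8 and L49-3, and L43-5 left was the lowest library. Single markers of the second heart field were lower on the left in 2, 6, 4 and 3 of 8. Markers of endothelium, in which *Notch1* and *Notch4* are known, were present in 15 of 15 with at least 1 read, 13 of them tested, and their sum ranged from 997 to 1373 on the left and 799 to 1327 on the right. Their log2 ratios were 0.01, 0.01, 0.11 and 0.31 in L29-3, L43-5, L46-8 and L49-3, where *Notch4* had 0.38, -0.10, -1.43 and -2.74. The sum is weighted towards abundant genes such as *Kdr*, and single markers went both ways, with 7, 10, 3 and 8 of 15 lower on the left in the same order. In L49-3, for instance, *Cdh5* was at 0.83 and *Pecam1* at -0.65. Of these markers 0 passed the threshold of the study in either direction, and their part in the ratio of *Notch4* was not tested.

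The dissected pieces were also not equal in other cell types. Markers of cardiomyocytes had log2 ratios of 0.07, -0.49, 0.96 and -1.75, with a sum of 641 in L49-3 left against 2067 to 6027 in the other 7 libraries. Those of the neural tube and floor plate had 0.17, -0.21, -1.11 and -0.52. Among them, 3 of 8 tested passed the threshold with a lower level on the left, against 1.42% of all tested genes. Single neural markers went both ways, with 2, 3, 10 and 8 of 10 lower on the left in L29-3, L43-5, L46-8 and L49-3. *Shh*, for instance, had a log2 fold change of 0.71 and did not pass. For pericytes and smooth muscle the sum, in which *Acta2* has the most counts, had ratios of 0.19, 0.000781, 0.82 and -0.54. In this list 1 of 5 tested genes passed the threshold with a higher level on the left, against 1.63% of all tested genes. It was *Pdgfrb*, a receptor that marks pericytes (log2 fold change 0.30, standard error 0.103, unadjusted p = 0.0124 from edgeR). Its ratios were 0.27, 0.22, 0.13 and 0.69, above 0 in 4 of 4 embryos, where 6.26% of all tested genes were. Single markers of this list went both ways, with 0, 4, 0 and 6 of 7 lower on the left in L29-3, L43-5, L46-8 and L49-3. The sum for paraxial mesoderm and somites had ratios of 0.26, -0.53, -0.40 and 0.13, with *Mesp2* at 0 reads. The ratios of the juxta-cardiac field were -0.58, 0.08, 1.02 and 0.40. Of its 4 genes 1, *Snai2*, a transcription factor of mesenchymal cells, passed the threshold with a higher level on the left (log2 fold change 0.55). The juxta-cardiac sum was low on both sides of L49-3, at 135 on the left and 101 on the right, against 247 to 507 in the other embryos. The ratios of foregut endoderm were -0.03, 0.23, 0.13 and 0.04. L49-3, the embryo with the largest ratio of *Notch3*, was thus also the embryo with the fewest cardiomyocyte transcripts on the left. The part of these differences in the ratios of the receptors was not tested.

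**Figure D5:**
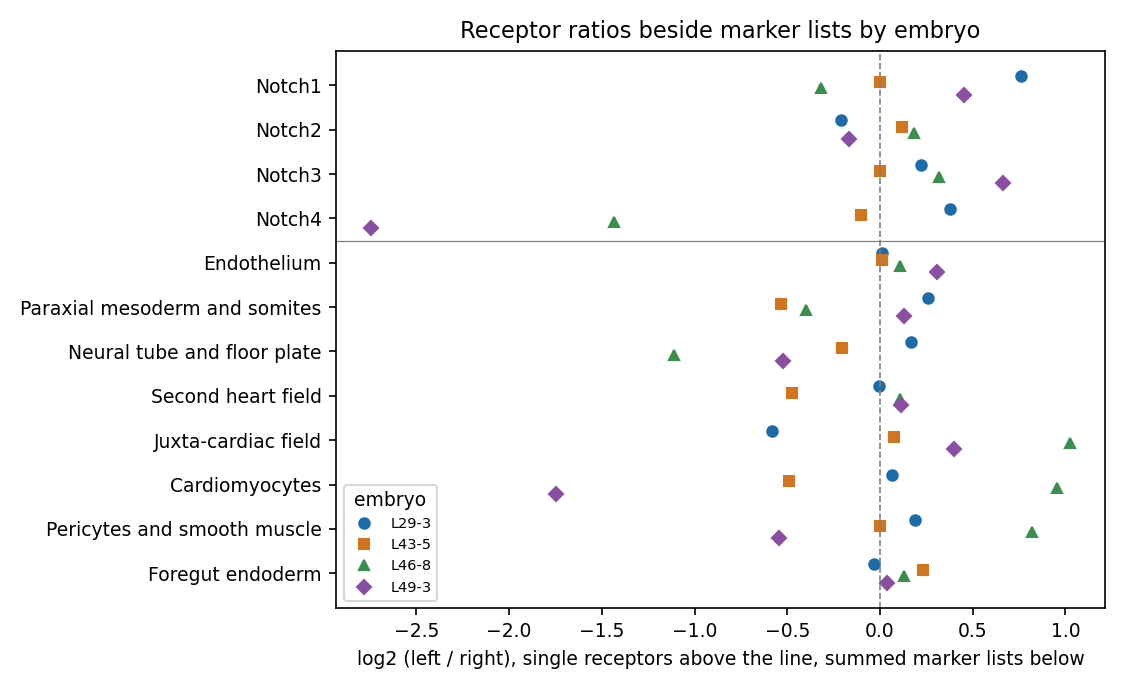
Log2 ratio of left to right in each embryo, for the 4 receptors above the grey line and for the summed markers of 8 cell types below it, with a symbol for each embryo. In L49-3 the cardiomyocyte sum lies at -1.75, *Notch4* at -2.74 and *Notch3* at 0.66.

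The receptors did not follow a single pattern over the 8 libraries. Pearson's r between *Notch3* and *Notch4* was -0.87, that of *Notch1* and *Notch2* -0.76, that of *Notch1* and *Notch3* 0.52, that of *Notch2* and *Notch3* -0.52, that of *Notch2* and *Notch4* 0.45 and that of *Notch1* and *Notch4* -0.22. These are descriptions over 8 libraries that come in 4 pairs of an embryo and share their scaling. The value for *Notch3* and *Notch4* includes L49-3 left, which is the highest library of the former and the lowest of the latter, and over the 6 libraries of the other embryos it was -0.50. Among 9743 other tested genes, those most alike *Notch3* by r were *Usp6nl* (0.962), *Sclt1* (0.956) and *Zfp760* (0.931), and 4 genes had an r above 0.9. For *Notch2* there were 82 such genes, led by *Virma* (0.986), *Ndufs1* (0.976) and *Podxl* (0.976). *Notch1* was followed most closely by *Zfp654* (0.945), *Las1l* (0.936) and *Tspyl4* (0.925), and *Notch4* by *Smco4* (0.973), *Helz2* (0.959) and *Zfp740* (0.958).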

How the data were processed

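Bulk RNA of 8 libraries, the left and right heart field of 4 embryos, was grouped by the side and embryo in the sample labels. The values deposited by the authors are raw counts of reads per gene. The authors mapped paired-end reads of poly-A RNA to GRCm38/mm10 with Hisat2, excluded duplicate reads and counted with featureCounts. They report that most reads were duplicates. The effect of their removal on levels per base and on counting errors was not tested. Versions and the strand setting are not given in the sources used here, so antisense reads cannot be told apart. Of 48526 identifiers, 48144 had a symbol in GENCODE vM21.

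Following the filter of the study, a gene was tested if 4 or more libraries reached 20 DESeq2-normalized counts. The test was the quasi-likelihood test of edgeR 4.0.16 (R 4.3.3) after TMM scaling, blocked by embryo. Differences between receptors used a pseudocount of 0.5 reads and exact permutation tests. The 95% intervals were computed with scipy 1.17.1. The pairing comes from the shared embryo, and the correlation of left and right deviations was 0.164, 0.194, -0.0108 and 0.444 in L29-3, L43-5, L46-8 and L49-3, against -0.389 to 0.257 between different embryos. The genes named are the receptors, the pathway genes past the threshold of the study or highest by count for each role, and the 3 genes most alike each receptor. *Hdac1*, *Kat2a*, *Ncstn*, *Hey1*, *Hey2*, the low ligands and targets, and single markers were named after their values were seen. A gene that the rule names and a marker list are not reported here. Receptors, lists and tests were chosen with earlier results of these data known. On simulated data with a dispersion of 0.02, 200 of 9744 genes were given a log2 fold change of 1 or -1. Of these 200 genes, 93.5% were recovered, with 14 false calls. Recovery of a log2 fold change as small as the 0.28 of *Notch3* was not tested. Alternatives were other scalings, filters, lengths and pseudocounts, DESeq2 1.42.0, limma-voom (limma 3.58.1), no replicate block and each embryo left out. Means, variation and correlations without L49-3 were added after seeing the data.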

Additional observations from a re-analysis of the deposited data

How the results depend on the processing

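Over 20 results, 193 alternatives named at the outset were run and 172 were labelled as unchanged. For log2 fold changes the label means the same direction and the same side of the threshold. For numbers of genes it means a number of similar size. Differences in ratio, level and share were mostly scored by the exact sign-flip permutation test, which cannot reach 0.05 with 4 embryos. Under that test their side of the threshold could not change, and the label rests on direction alone. All 66 alternatives of the level differences kept their direction. The number of genes with an adjusted p under 0.05 went from 1 to 34 with no filter, 2 with DESeq2, 0 with at least 10 counts in every library and 0 with no replicate block, and from 1 to 5 with an embryo left out. The number past the threshold of the study was 297, and 687 with no filter, 59 with DESeq2 and 268 to 379 with an embryo left out. With an embryo left out, the pathway list had 1 to 4 genes past that threshold instead of 3, the log2 fold change of *Notch1* was 0.0267 to 0.37 (0.37 without L46-8, unadjusted p = 0.0413 from edgeR), that of *Notch2* -0.0666 to 0.0637, that of *Notch3* 0.17 to 0.39 and that of *Notch4* -0.96 to -0.28 (-0.96 without L29-3, unadjusted p = 0.0459 from edgeR). In place of -0.00635, *Notch2* was at 0.00650 with library size alone, 0.00743 with no filter and 0.00728 with limma-voom. Added after seeing the data, the mean log2 ratio of *Notch2* per embryo was 0.0301 without L49-3 in place of -0.0195. *Notch3* was at 0.25 with limma-voom, under the fold of 1.2, with an unadjusted p of 0.0240, and *Notch4* was not tested with at least 10 counts in every library. With an embryo left out, *Notch3* minus *Notch1* in log2 ratio went from -0.11 to 0.28, and the share of *Notch1*, left minus right, from -0.853 to 1.82 percentage points. The cause of these changes was not tested. The log2 fold change of *Notch3* was 0.30 with no replicate block (unadjusted p = 0.0176 from edgeR), and without the pairing the differences of *Notch3* from *Notch1*, *Notch2* and *Notch4* had p-values of 0.743, 0.114 and 0.143 by exact permutation of the libraries. The depth limits *Notch4* most, whose smallest count was 2 reads.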
